A study of Homo sapiens with 6 samples.

Results

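The genes examined here encode 10 surface or secreted proteins through which tumour cells restrain immune cells: CD274, PDCD1LG2, CD276, VSIR, PVR, NECTIN2, NT5E, CD47, LGALS9 and HLA-G. They were chosen by gene symbol, and all 10 were among the 24526 genes of the count table. RNA was taken from WM266.4 cells, an established human melanoma line, 48 h after transfection with 1 of 2 reagents. Of the 6 libraries, 3 came from cells given a negative control siRNA (neg.si) and 3 from cells given siRNA against the kinase RIPK4 (RIPK4.si). Small interfering RNA makes the cell cut transcripts that pair with it, so RIPK4 was lowered transiently and not deleted, and the study's methods name 1 siRNA product per group. The labels name no cytokine treatment.

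An immune checkpoint is a signal that limits a T cell, NK cell or macrophage after it has met its target. CD274 (PD-L1) and PDCD1LG2 (PD-L2) bind the receptor PD-1 on T cells, and in many tumours CD274 is induced by interferon-gamma. PVR and NECTIN2 are shared by the inhibitory receptor TIGIT and the activating receptor CD226, NT5E (CD73) is an enzyme that makes adenosine outside the cell, and CD47 is a signal to macrophages not to engulf. The labels give a melanoma line and no added immune cells, and what was read is transcript, of the ligands and of any receptor these cells transcribe themselves.

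Libraries held between 28464057 and 31688095 counts on genes. RIPK4 itself lay at 85.7, 76.5 and 54.7 CPM (counts per 1000000 of TMM-normalized library size) in the neg.si libraries, in the order of replicates 1, 2 and 3 used throughout, and at 19.9, 16.7 and 21.5 CPM in the RIPK4.si libraries. RIPK4.si therefore held 26.8% of the control level, with a log2 fold change of -1.90 (SE 0.203, adjusted p = 0.0102, edgeR's quasi-likelihood test). Neg.si replicate 3 stood apart on the first principal component, which carried 44.9% of the variance. Across 16239 genes, the deviation of a library from the mean was compared with GC content by rank correlation. This correlation was 0.555, 0.0815 and -0.547 in neg.si replicates 1, 2 and 3, and -0.0788 to 0.165 in RIPK4.si. Pigment cell genes were present, with 8 of 8 melanocyte lineage markers summing to between 3570 and 4009 CPM in neg.si and between 2632 and 2757 CPM in RIPK4.si. EdgeR called 1 of the 8, PMEL, against 0.767% of all genes tested, DESeq2 called 3, against 2.78%, and edgeR with the GC trend of each library removed called 2, against 3.27%. Lymphocyte markers summed to between 0.484 and 1.12 CPM in every library, with CD3D and MS4A1 absent from the table. Monocyte markers summed to between 1.70 and 2.87 CPM with CD163 absent, and endothelial markers to between 1.07 and 1.56 CPM. Keratinocyte markers summed to 10.2 to 11.6 CPM in neg.si and 11.8 to 16.1 CPM in RIPK4.si, and fibroblast markers to 2.49 to 4.68 CPM and 5.07 to 5.53 CPM. Most of the keratinocyte sum was KRT10, at 10.8, 10.2 and 10.5 CPM in neg.si and 13.9, 16.1 and 11.8 CPM in RIPK4.si. KRT5 and KRT14 had 0 counts in replicates 2 and 3 of both groups, and KRT1 was absent. Most of the fibroblast sum was PDGFRB, whose groups overlapped. LUM was at 0.596 and 1.09 CPM on average, and DCN and COL1A1 lay at 0.290 CPM or lower in every library. The part of other cell types in the results was not tested.

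Promoter sequence was read for the member with the largest distance between the groups relative to its error, NT5E, and for the member whose promoter held both kinds of interferon letters, CD274. Both are the 250 bases before the RefSeq start on GRCh38.p14. NT5E lies at chr6:85449833-85450082 on the plus strand and CD274 at chr9:5450292-5450541 on the plus strand. In GENCODE, whose coordinates are used for the genes elsewhere, NT5E and CD274 have annotated starts further upstream, so the whole NT5E window and the end of the CD274 window lie within those gene bounds. Capitals mark matches, on either strand, to the interferon-gamma activated site TTCNNNGAA or to the interferon regulatory factor element GAAANNGAA.
NT5E: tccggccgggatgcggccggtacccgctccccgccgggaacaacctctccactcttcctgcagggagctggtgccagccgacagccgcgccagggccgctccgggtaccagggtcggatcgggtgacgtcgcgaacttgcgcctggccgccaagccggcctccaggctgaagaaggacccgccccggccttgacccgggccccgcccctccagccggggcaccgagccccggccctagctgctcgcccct
CD274: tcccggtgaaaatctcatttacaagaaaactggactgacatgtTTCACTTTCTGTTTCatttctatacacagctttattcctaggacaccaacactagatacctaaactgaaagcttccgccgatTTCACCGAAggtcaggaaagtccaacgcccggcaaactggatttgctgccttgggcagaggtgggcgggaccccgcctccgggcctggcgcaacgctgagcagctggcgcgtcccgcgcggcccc
CD274 held 1 match to the first motif, and 2 matches to the second that overlap each other and run together in the printed sequence. NT5E held neither, nor the AP-1 letters TGANTCA. Of 35116 promoters of the same length, counted with the 50 bases after the start, 7.66% held TTCNNNGAA, 8.11% GAAANNGAA and 7.71% TGANTCA. Of the 9 members with an entry in the promoter table, LGALS9 held 1 match to GAAANNGAA, and HLA-G held 1 match to TGANTCA at 1 of its 3 annotated starts. PDCD1LG2 was the member with no entry. The matches are letters in a window and do not show binding.

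The melanoma cells transcribed NT5E and CD276 at the highest levels per length of exon and the PD-1 ligands and HLA-G at the lowest. Levels between genes are given as CPM per kb of annotated exon, since a longer transcript collects more counts. In neg.si, NT5E stood at 105 ± 11.3 (SD, n = 3) and CD276, a B7 family molecule also called B7-H3, at 92.6 ± 19.6, and the libraries of the pair overlapped. NECTIN2 followed at 19.7 ± 6.06, CD47 at 7.80 ± 2.09, VSIR at 3.77 ± 1.30, PVR at 2.96 ± 0.491 and LGALS9 at 1.30 ± 0.430. VSIR and PVR were neighbours whose libraries overlapped in both groups. The PD-1 ligands lay lowest among the genes tested, with CD274 at 0.302 ± 0.0373, PDCD1LG2 at 0.200 ± 0.0505 and no overlap between their libraries, and HLA-G was lower still at 0.0498 ± 0.0474. In RIPK4.si, CD276 was first at 106 ± 22.9 and NT5E second at 64.3 ± 2.74, with no overlap between their libraries. PDCD1LG2, at 0.468 ± 0.0625, stood above CD274, at 0.358 ± 0.103, but their libraries overlapped. With the length of the longest transcript in place of all exons, CD276 was above NT5E in both groups, at 154 against 122 in neg.si, and PVR was above VSIR.

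**Figure D1:**
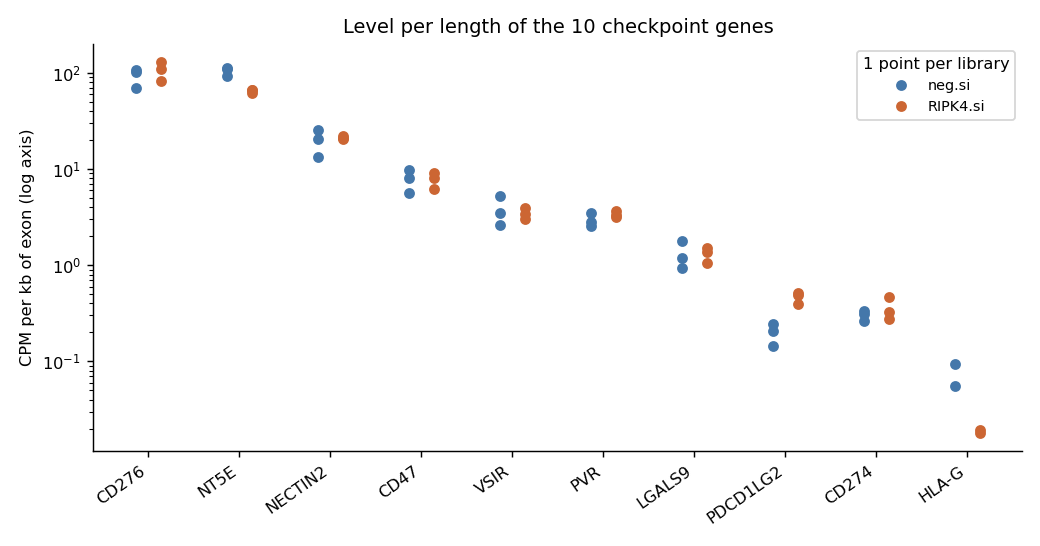
CPM per kb of exon on a log axis for the 10 members, ordered by their mean over all libraries, with 1 point per library, neg.si in blue and RIPK4.si in orange; libraries with 0 counts of HLA-G are not drawn. NT5E and CD276 lie between about 61.2 and 128 in every library, and CD274, PDCD1LG2 and HLA-G below 0.52.

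Silencing of RIPK4 was followed by no call among the members at an adjusted p under 0.05 in edgeR's quasi-likelihood test. HLA-G did not pass the filter on low counts, and of the 9 members tested 0 were called, where 0.767% of all 16297 genes tested were called, 61 higher and 64 lower in RIPK4.si. The count of 125 over all genes depended on the libraries used. Leaving out RIPK4.si replicates 1, 2 and 3 in turn gave 0, 4 and 0 calls, and leaving out the neg.si libraries in the same order gave 70, 0 and 295. At an unadjusted p under 0.05 there were 2 members, NT5E and PDCD1LG2, against 10.8% of all genes tested. The same 2 members had groups whose levels were fully separate, against 17.6% of all genes tested. DESeq2, the tool named in the study's methods, called 1 member, NT5E, against 2.78% of the genes to which it gave an adjusted p. With the GC trend of each library removed, edgeR also called NT5E alone among the members, against 3.27% of all genes tested. The median log2 fold change of the 9 members was 0.10, against -0.02 for all genes tested. The fitted difference was above 0 for 6 members and below 0 for 3, and 7 lay within 0.3 of 0 on the log2 scale.

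**Figure D2:**
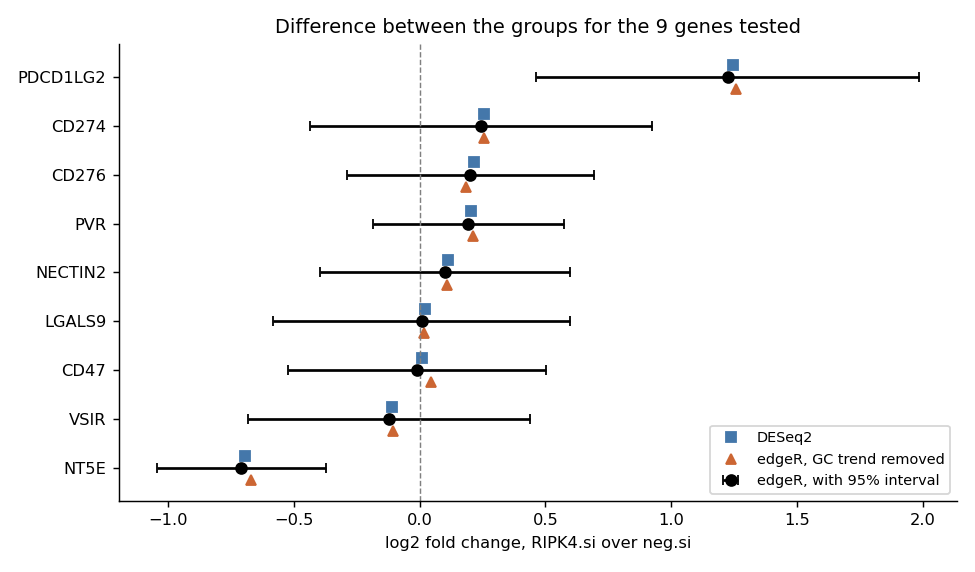
Log2 fold change of RIPK4.si over neg.si for the 9 members tested, as edgeR estimates with 95% intervals (black) and as estimates from DESeq2 (blue squares) and from edgeR after removal of the GC trend (orange triangles). The intervals of PDCD1LG2 (0.46 to 1.99) and NT5E (-1.05 to -0.37) leave out 0, before any adjustment for the number of genes, and the other 7 span it.

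NT5E encodes CD73, the ectoenzyme that converts extracellular AMP to adenosine, which acts on adenosine receptors of T cells and myeloid cells. Its gene lies at chr6:85449584-85495791 on the plus strand of GRCh38. NT5E was measured at 418, 500.4 and 512 CPM in neg.si and at 277, 300.4 and 297 CPM in RIPK4.si. Every RIPK4.si library lay below every neg.si library, and the RIPK4.si libraries were close together. In RNA of a whole culture, fewer expressing cells and less RNA per cell cannot be told apart. The means were 477 ± 51.1 and 292 ± 12.4 CPM (SD, n = 3 per group), so that RIPK4.si held 61.2% of the control level (95% interval 48.5% to 77.1%). The log2 fold change was -0.71 (SE 0.149, unadjusted p = 0.000928), and the adjusted p of 0.0761 did not pass the threshold. DESeq2 gave an adjusted p of 0.00393, and edgeR with the GC trend removed 0.0297. Over 14 alternatives the adjusted p of NT5E ran from 0.00393 to 0.448 and the log2 fold change from -0.78 to -0.65. An exact permutation test of the 6 libraries gave p = 0.1, two-sided, which is the smallest that 3 against 3 can give.

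PDCD1LG2 encodes PD-L2, a ligand of PD-1, and was the member with the largest fold difference on few counts. It lies at chr9:5510531-5571282 on the plus strand, next to CD274. PDCD1LG2 collected 11, 18 and 16 counts in neg.si and 37, 28 and 37 in RIPK4.si, which is 0.355, 0.599 and 0.503 CPM against 1.26, 0.968 and 1.19 CPM. All 3 RIPK4.si libraries lay above all 3 neg.si libraries. The means were 0.486 ± 0.123 and 1.14 ± 0.152 CPM (SD, n = 3 per group), a 2.34-fold difference with a 95% interval of 1.38 to 3.96. The log2 fold change of 1.22 (SE 0.339, unadjusted p = 0.00531) had an adjusted p of 0.174 in edgeR, 0.164 in DESeq2 and 0.0680 with the GC trend removed. Over the alternatives the adjusted p ran from 0.0680 to 0.630, and the exact permutation p was 0.1.

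CD274 encodes PD-L1, the ligand of PD-1 that antibodies used against melanoma block. It lies at chr9:5450503-5470566 on the plus strand. CD274 collected 40, 41 and 34 counts in neg.si and 57, 39 and 35 in RIPK4.si, which is 1.29, 1.36 and 1.07 CPM against 1.94, 1.35 and 1.12 CPM. RIPK4.si replicate 1 was the highest library and the other 2 lay within the range of neg.si. The log2 fold change was 0.24 (SE 0.303, adjusted p = 0.887), with a 95% interval of -0.44 to 0.92, so that a difference as large as that of PDCD1LG2 was outside the interval and one of up to 1.90-fold was not.

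**Figure D3:**
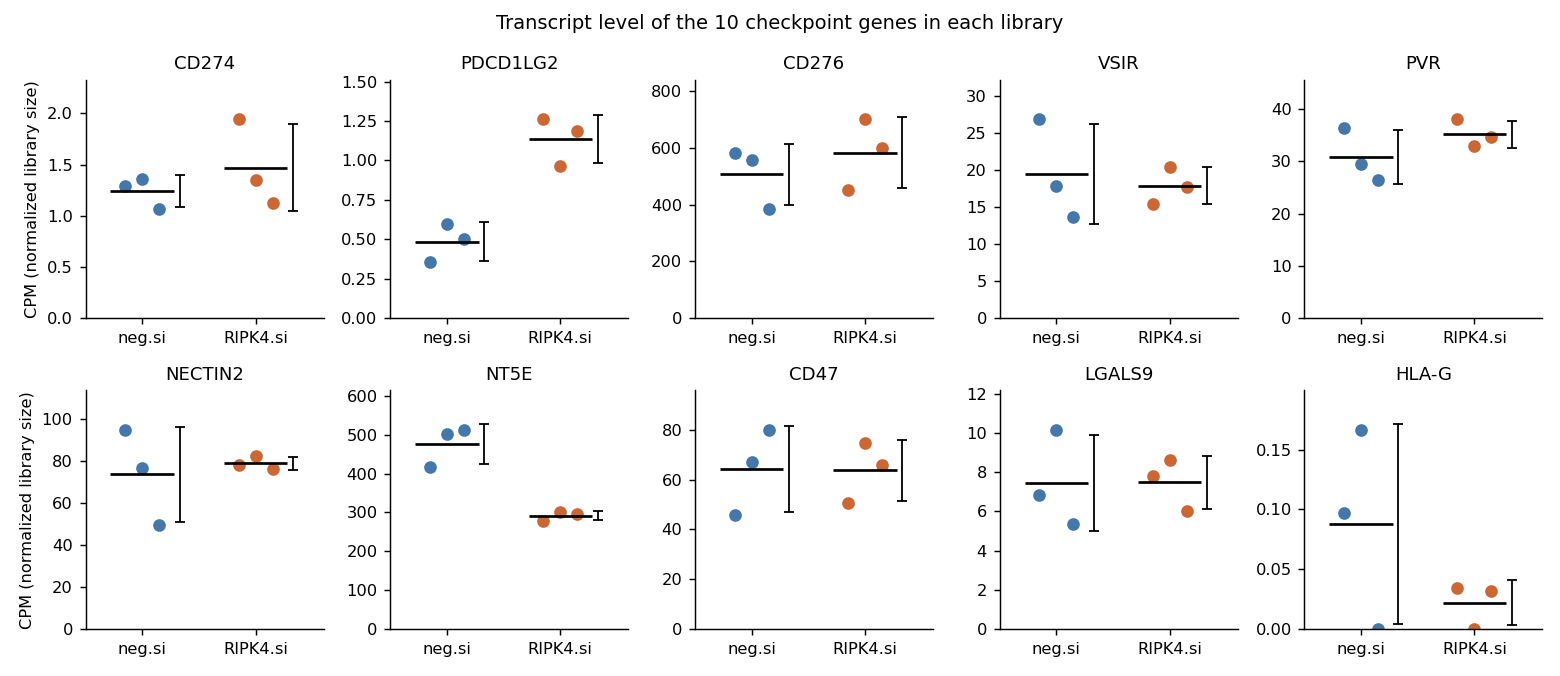
CPM of normalized library size of each member in each library, with the axis of every panel starting at 0, points for libraries in the order of replicates 1 to 3, a horizontal line for the mean and a bar for 1 SD either side of it. NT5E and PDCD1LG2 are the panels of tested genes in which the groups do not overlap.

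Both PD-1 ligands are transcribed on the plus strand of chromosome 9, and a long non-coding RNA gene on the opposite strand, AL162253.2 (ENSG00000286162), overlaps both without sharing an exon base with either. AL162253.2 collected 66, 60 and 54 counts in neg.si and 99, 103 and 80 in RIPK4.si. Its groups did not overlap either, and its log2 fold change was 0.70 (SE 0.238, unadjusted p = 0.0153, adjusted p = 0.283). Reads were counted without strand, and the part of this gene in the counts of PDCD1LG2 was not tested.

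The ratio of the PD-1 ligands within a library does not depend on how libraries were scaled, and was examined after the values of both genes were seen. PDCD1LG2 made up 21.6% of the counts of both ligands in neg.si replicate 1 (11 of 51, exact Clopper-Pearson 95% interval 11.3% to 35.3%), 30.5% in replicate 2 and 32.0% in replicate 3. In RIPK4.si it made up 39.4%, 41.8% and 51.4% (37 of 72, interval 39.3% to 63.3%). The groups did not overlap, though the intervals of neighbouring libraries did, and the exact permutation p was 0.1. These intervals cover counting error only. The same share for NT5E of NT5E and CD276 together was 41.8%, 47.3% and 57.1% in neg.si and 38.1%, 30.0% and 33.1% in RIPK4.si, also without overlap (exact permutation p = 0.1), which rests on the same NT5E counts as above. NT5E and CD276 differ in GC content (45.2% against 60.0%), so their share can move with the GC trend of a library, which was not tested here. For PVR of PVR and NECTIN2 it was 27.8%, 27.8% and 34.9% against 32.8%, 28.6% and 31.3%, with overlap (exact permutation p = 0.8). These 3 pairs were the ones computed, and their Benjamini-Hochberg adjusted p were 0.15, 0.15 and 0.8 in the order given, in a design where no share could go below 0.1, so the shares are a description.

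**Figure D4:**
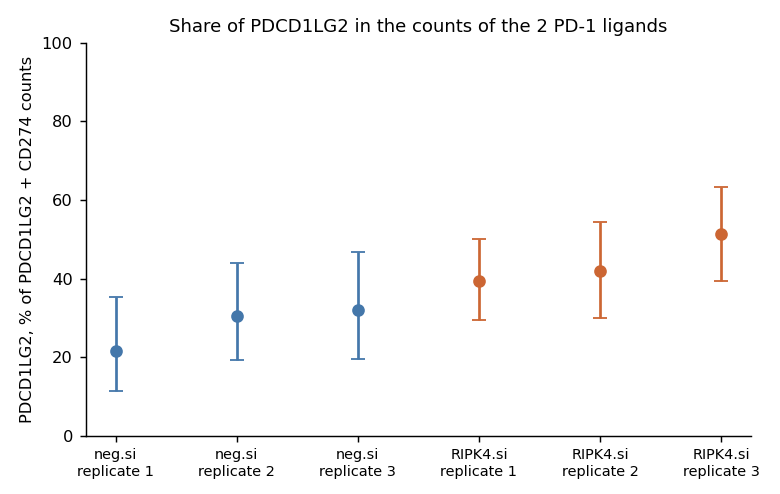
PDCD1LG2 as a percent of the summed counts of PDCD1LG2 and CD274 in each library, with exact 95% binomial intervals. The neg.si libraries lie at 21.6% to 32.0% and the RIPK4.si libraries at 39.4% to 51.4%.

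The other B7 family members differed by less than the spread between replicates. CD276, a B7 molecule abundant on many tumours whose receptor on T cells is unsettled, lies at chr15:73683966-73714514 on the plus strand. It stood at 581, 557 and 384 CPM in neg.si and 451, 700.0 and 599 CPM in RIPK4.si, and the libraries of the groups were interleaved. The log2 fold change was 0.20 (SE 0.218, adjusted p = 0.864), with an interval of -0.29 to 0.69. VSIR encodes VISTA, an inhibitory molecule best known from myeloid cells and T cells, at chr10:71747556-71773520 on the minus strand. VSIR stood at 26.8, 17.8 and 13.6 CPM in neg.si and 15.4, 20.4 and 17.7 CPM in RIPK4.si. The RIPK4.si libraries lay inside the range of neg.si, and the log2 fold change was -0.12 (SE 0.249, adjusted p = 0.945). Without neg.si replicate 1 it was 0.20. CDH23 lies on the opposite strand across VSIR, without shared exon bases, and collected 4 to 11 counts per library.

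The nectin ligands of TIGIT and CD226 lie near each other on chromosome 19, PVR at chr19:44643798-44666162 and NECTIN2 at chr19:44846175-44889223, both on the plus strand. PVR, also the receptor of poliovirus, stood at 36.5, 29.5 and 26.5 CPM in neg.si and 38.0, 33.0 and 34.8 CPM in RIPK4.si. The upper end of neg.si lay among the RIPK4.si libraries, and the log2 fold change was 0.19 (SE 0.169, adjusted p = 0.810), with an interval of -0.19 to 0.57. NECTIN2, which also binds the inhibitory receptor PVRIG, stood at 94.6, 76.5 and 49.5 CPM in neg.si and 78.1, 82.2 and 76.1 CPM in RIPK4.si. The neg.si libraries of NECTIN2 spread 1.91-fold from lowest to highest and the RIPK4.si libraries 1.08-fold. Its log2 fold change was 0.10 (SE 0.220, adjusted p = 0.949), and without neg.si replicate 3 it was -0.11. PVR shares 2028 exon bases with ENSG00000279095, an annotated transcript still to be experimentally tested, for which no counts were used here. It shares a further 121 with CEACAM19, also on its strand, which collected 1 to 9 counts. NECTIN2 shares 128 with AC011481.2 on the opposite strand, which collected 0 to 4.

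CD47, the ligand of SIRPA on macrophages and dendritic cells, lies at chr3:108043091-108091862 on the minus strand. It stood at 45.8, 66.9 and 79.9 CPM in neg.si and 50.7, 74.7 and 65.9 CPM in RIPK4.si, and each RIPK4.si library lay inside the range of neg.si. The log2 fold change was -0.01 (SE 0.227, adjusted p = 0.997), with an interval of -0.52 to 0.50. LGALS9 encodes galectin-9, a sugar-binding protein described as a ligand of TIM-3, at chr17:27629798-27649560 on the plus strand. It stood at 6.84, 10.2 and 5.35 CPM in neg.si and 7.80, 8.65 and 6.01 CPM in RIPK4.si, again inside the range of neg.si. The log2 fold change was 0.01 (SE 0.263, adjusted p = 0.997), with an interval of -0.58 to 0.60. LGALS9 has near copies, LGALS9B and LGALS9C, so reads that fit several of them leave its level uncertain. It also shares 294 exon bases with another protein-coding gene on its strand.

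HLA-G, a class I HLA molecule known from the placenta that binds inhibitory LILRB receptors, lies at chr6:29826967-29831125 on the plus strand. It collected 3, 5 and 0 counts in neg.si and 1, 0 and 1 in RIPK4.si. A count of 0 allows up to 3 counts, 0.0944 to 0.104 CPM in these libraries, so HLA-G was at or near the limit of detection in both groups and no fold is given. Its reads resemble those of other class I HLA genes, and its counts are uncertain for that reason too. It also shares 455 exon bases with the pseudogene HCG4P8 on the opposite strand.

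Neg.si replicates 1 and 3, which deviated in opposite directions with GC content, did so at most members too. The log2 ratio of neg.si replicate 1 to replicate 3 was -0.80 for CD47, with exons of 38.4% GC, and -0.50 for PDCD1LG2 and -0.29 for NT5E, with 41.7% and 45.2% GC. It was 0.93 for NECTIN2, 0.60 for CD276 and 0.98 for VSIR, with 60.8%, 60.0% and 59.2% GC. PVR and LGALS9, with 52.3% and 53.7% GC, had ratios of 0.46 and 0.36, and the highest neg.si library of LGALS9 was replicate 2. CD274, with 40.7% GC, had a ratio of 0.27 and was the exception among the AT-rich members. The ratios of CD274 and PDCD1LG2 rest on few counts, 40 against 34 and 11 against 16, and are uncertain for that reason. With the GC trend removed, edgeR gave log2 fold changes of -0.67 for NT5E (adjusted p = 0.0297) and 1.26 for PDCD1LG2 (adjusted p = 0.0680). The part of GC content in these differences was not tested.

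Genes that act with the members were read from 10 lists arranged by role, which name 117 genes, 109 of them in the table and 93 tested. None was called by edgeR, and 10 had an unadjusted p under 0.05, a share close to the 10.8% of all genes tested. DESeq2 called 4 (BTN3A1, THBS1, QPCT and STAT2), against 2.78% of all genes given an adjusted p. EdgeR with the GC trend removed called 4 (BTN3A1, THBS1, STAT2 and ADAM10), against 3.27% of all genes tested. The median log2 fold change of the 93 genes was -0.06, against -0.02 for all genes tested, and 14 had groups without overlap, against 17.6% of all genes tested. These counts lie near the shares over all genes.

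Among further B7 family ligands, 5 of 8 listed were tested, with 3 fitted above 0 and 2 below and a median of 0.15. BTN3A1, a butyrophilin through which gamma-delta T cells sense phosphoantigens, stood at 20.9, 25.5 and 27.0 CPM in neg.si and 46.9, 37.6 and 44.1 CPM in RIPK4.si. Every RIPK4.si library was above every neg.si library, and the log2 fold change was 0.81 (SE 0.168, adjusted p = 0.0740 in edgeR, 0.00154 in DESeq2 and 0.0132 with the GC trend removed). ICOSLG, the ligand of the costimulatory receptor ICOS, was at 3.58 ± 0.747 and 4.38 ± 0.268 CPM (adjusted p = 0.763). The classical costimulatory ligand CD80 was at 1.45 ± 0.502 and 1.61 ± 0.223 CPM (adjusted p = 0.946).

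Of the adenosine axis around NT5E, 10 of 15 genes were tested, 7 fitted above 0 and 3 below, with a median log2 fold change of 0.08. The equilibrative nucleoside transporter SLC29A1, which moves adenosine across the membrane, stood at 35.4 ± 8.33 CPM in neg.si and 48.2 ± 4.55 CPM in RIPK4.si (log2 fold change 0.45, adjusted p = 0.448). ADK, the kinase that returns adenosine to AMP inside the cell, stood at 25.4 ± 3.10 and 32.0 ± 6.81 CPM (adjusted p = 0.632). CD38, an ectoenzyme that consumes NAD, was at 0.680 ± 0.125 and 0.478 ± 0.121 CPM (adjusted p = 0.754).

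Of the CD47 axis, 9 of 10 genes were tested, 3 fitted above 0 and 6 below, with a median of -0.12, and 4 had an unadjusted p under 0.05, where 10.8% of all genes tested did. THBS1 encodes thrombospondin-1, a secreted ligand of CD47, and stood at 261, 303 and 329 CPM in neg.si and 538, 393 and 526 CPM in RIPK4.si. Its groups did not overlap, and the log2 fold change was 0.71 (SE 0.176, adjusted p = 0.130 in edgeR, 0.0110 in DESeq2 and 0.0254 with the GC trend removed). The glutaminyl cyclases QPCT and QPCTL form pyroglutamate at protein ends, and QPCTL does so on CD47, which SIRPA binding needs. QPCT stood at 482, 445 and 461 CPM in neg.si and 333, 324 and 306 CPM in RIPK4.si (log2 fold change -0.53, SE 0.138, adjusted p = 0.146 in edgeR, 0.0483 in DESeq2 and 0.0929 with the GC trend removed). QPCTL was fitted on the other side of 0, with 28.5 ± 8.34 and 47.1 ± 11.0 CPM (log2 fold change 0.73, adjusted p = 0.301). The fourth, THBS2, which encodes another thrombospondin, is named after its values were seen and stood at 10.7, 9.41 and 6.48 CPM in neg.si and 6.78, 5.98 and 5.78 CPM in RIPK4.si, with overlap (log2 fold change -0.52, adjusted p = 0.434).

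The route by which interferons reach the CD274 promoter gave 15 genes tested of 16, 6 fitted above 0 and 9 below, with a median of -0.06. STAT2, a transcription factor activated by type I interferon, stood at 40.5, 52.2 and 51.6 CPM in neg.si and 81.6, 66.5 and 76.7 CPM in RIPK4.si. Its groups did not overlap, with a log2 fold change of 0.64 (SE 0.163, adjusted p = 0.137 in edgeR, 0.0236 in DESeq2 and 0.0457 with the GC trend removed). IRF1, the factor that binds GAAANNGAA letters after interferon-gamma, was at 4.08 ± 1.26 and 3.18 ± 0.201 CPM (adjusted p = 0.753), and the kinase TYK2 at 54.1 ± 12.7 and 64.2 ± 4.24 CPM (adjusted p = 0.769).

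Genes that handle the PD-L1 protein gave 15 tested of 15, 5 fitted above 0 and 10 below, with a median of -0.09. ADAM10 and ADAM17 are membrane proteases that shed PD-L1 among many other proteins. ADAM10 stood at 328, 389 and 567 CPM in neg.si and 294, 199.6 and 262 CPM in RIPK4.si (log2 fold change -0.76, SE 0.231, adjusted p = 0.219 in edgeR, 0.0544 in DESeq2 and 0.0447 with the GC trend removed). ADAM17 stood at 67.9 ± 18.6 and 38.2 ± 10.8 CPM (log2 fold change -0.83, adjusted p = 0.241). GSK3B, a kinase that marks PD-L1 for degradation, was at 167 ± 28.3 and 130.2 ± 10.1 CPM (adjusted p = 0.480).

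**Figure D5:**
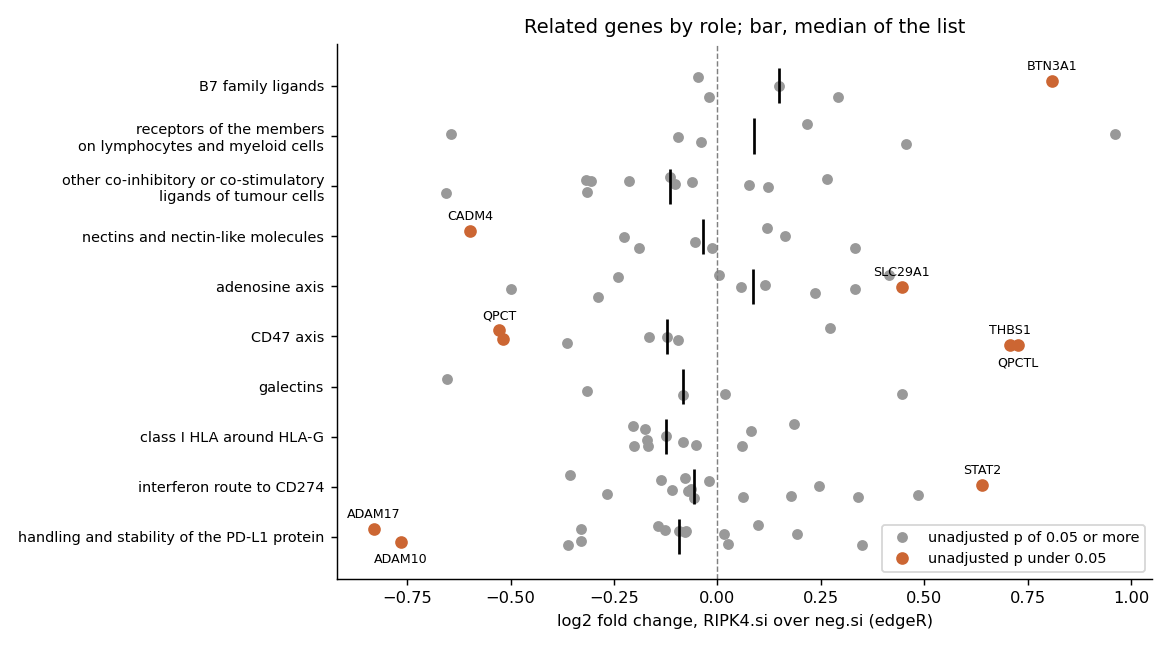
Log2 fold change (edgeR) of RIPK4.si over neg.si for the tested genes of the 10 related lists, 1 point per gene, with those of unadjusted p under 0.05 in orange and up to 3 of these named per list; vertical bars are list medians, which lie between -0.12 and 0.15. No gene drawn has an adjusted p under 0.05.

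Nectins and nectin-like molecules had 8 of 9 genes tested, 3 fitted above 0 and 5 below (median -0.03). The adhesion molecule CADM4 in this list stood at 213 ± 50.6 and 141 ± 21.1 CPM (log2 fold change -0.60, adjusted p = 0.283). Other ligands of tumour cells had 11 of 14 tested, 3 above 0 and 8 below (median -0.11). CD200, an inhibitory ligand of myeloid cells, stood at 148 ± 18.1 and 118 ± 7.21 CPM (adjusted p = 0.497) and had the smallest unadjusted p of that list. Galectins had 5 of 9 tested (median -0.08), with LGALSL at 6.02 ± 0.729 and 8.20 ± 1.503 CPM (log2 fold change 0.44, adjusted p = 0.489) and LGALS12 at 3.36 ± 1.39 and 2.14 ± 0.431 CPM (log2 fold change -0.65, adjusted p = 0.577). LGALS3 was at 1066 ± 207 and 856 ± 225 CPM (adjusted p = 0.733). Class I HLA genes and their regulators had 11 of 11 tested, 3 above 0 and 8 below (median -0.12), with HLA-B at 219 ± 13.9 and 190 ± 23.9 CPM (adjusted p = 0.754). Receptors of the members had 6 of 13 tested, 3 above 0 and 3 below (median 0.09), none with an unadjusted p under 0.05. IGSF11, an adhesion molecule described as a partner of VISTA, was at 24.6 ± 1.004 and 28.6 ± 0.0628 CPM (log2 fold change 0.22, adjusted p = 0.702), with groups that did not overlap. TIGIT was at 0.203 ± 0.173 and 0.400 ± 0.0986 CPM (log2 fold change 0.96, adjusted p = 0.707) and PVRIG at 0.804 ± 0.342 and 0.513 ± 0.120 CPM (log2 fold change -0.64, adjusted p = 0.693), both with overlap. SIRPA, the receptor of CD47, is named after its values were seen, since it was the most abundant receptor of the list. The melanoma cells transcribed SIRPA at 153, 141 and 127 CPM in neg.si and 134, 124 and 135 CPM in RIPK4.si, with overlap (log2 fold change -0.10, adjusted p = 0.915).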

How the data were processed

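Poly(A) RNA of 6 WM266.4 libraries was sequenced as paired reads on the BGISEQ500 platform. Per the labels and the study's methods, the authors trimmed reads with Cutadapt, used TopHat for alignment to GRCh38.p13 and counted pairs on each gene without regard to strand. The deposited counts, whole and not normalized, cover 24526 genes with at least 6 counts in total and were the values used. A further 6 columns of normalized counts, and the authors' fold changes, standard errors, p-values and FDR, were not used. The labels number the replicates, and the study calls them biological replicates and independent experiments without naming cultures or days. The time of 48 h is from the study's text.

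Counts were fitted with edgeR 4.0.16 (TMM, filterByExpr, quasi-likelihood test, Benjamini-Hochberg adjustment over 16297 genes) in R 4.3.3. A gene was called at an adjusted p under 0.05. Alternatives were DESeq2 1.42.0, edgeR with DESeq2 size factors, edgeR with upper-quartile scaling, no filter, at least 10 counts in every library, a replicate block, removal of each library's GC trend (lowess, span 0.3), both together, and each library left out. Exact tests of single genes compared mean log2 CPM with 0.1 CPM added, and those of pairs compared the percent of their summed counts. The tests were also run on simulated data with planted changes but no GC trend, and the outcome is not used here. The members and lists were chosen with earlier results of these data known. All 10 members were named. From each related list, called genes or at most the 3 with the smallest unadjusted p were named. All 10 members had the coordinates of GENCODE release 44, which gave exon lengths, GC content and overlaps. Promoter sequences came from a RefSeq table that matched 9 members. Protein identity was planned and not run, as no protein table was at hand.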

Additional observations from a re-analysis of the deposited data

How the results depend on the processing

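Of 126 comparisons of a member's log2 fold change with an alternative, 108 kept direction and side of the threshold. NT5E passed the threshold in 3, DESeq2 (-0.69), GC trend removed (-0.67) and GC trend removed with the replicate block (-0.67, adjusted p = 0.0372). These settings each called 1 member in place of 0. PDCD1LG2 was called in none. Direction turned for members near 0. CD47 was 0.0095 in DESeq2, 0.00058 with DESeq2 size factors in edgeR, 0.0085 with no filter, 0.0080 with the replicate block, 0.046 with the GC trend removed, 0.030 with that and the block, and -0.18 to 0.18 over libraries left out. With libraries left out, LGALS9 ran from -0.18 to 0.31, VSIR from -0.32 to 0.20 and NECTIN2 from -0.11 to 0.34.

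All genes called were 430 in DESeq2, 533 with the GC trend removed and 434 with the replicate block added, against 125, and 131 with the replicate block alone, which called no member. They ran from 0 (without neg.si replicate 2, RIPK4.si replicate 1 or RIPK4.si replicate 3) to 295 (without neg.si replicate 3). Related genes called were 4 in DESeq2 and 4 with the GC trend removed, and 0 to 1 over libraries left out, the 1 without neg.si replicate 3. Same-numbered libraries did not deviate together in every pair (correlations -0.242, 0.251 and 0.346). The GC trend of neg.si replicates 1 and 3 enters these correlations, so they cannot settle whether the numbers are pairs. The main fit did not pair libraries, and the replicate block was run as an alternative. The order by level per length, taken over all 6 libraries, changed at 4 positions with the longest transcript, and at 0 to 2 with a library left out. Within neg.si, CD276 stood above NT5E without neg.si replicate 3. Depth limits PDCD1LG2, CD274 and HLA-G, with at most 57 counts in any library. The causes were not tested.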
